A study of Mus musculus with 11 samples.

Results

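Doxycycline induction was followed within 1 clone of each genotype of DGCR8 in mouse embryonic stem cells: clone 10 with a wild-type DGCR8 vector and clone 8 with a DGCR8 E518K vector. Each clone gave 1 small RNA library without doxycycline and 1 after 48 h of doxycycline at 300 ng/mL. These 4 of the 11 libraries of the series were compared over the 393 of 1966 listed mature miRNAs with 50 or more counts in at least 1 of the 4. The untreated libraries had been made to see how far the vectors leak without the drug. Every arm held 1 library, so no test was made, and each ratio describes a pair of libraries and not a condition.

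The clone 10 libraries carried the genotype label DGCR8 wt/wt and the doxycycline vector pSB ET iE-FlagDGCR8-wt, brought in together with the plasmid pCMV(CAT)-SB100X. The clone 8 libraries carried the label DGCR8 E518K/E518K and the vector pSB ET iE-FlagDGCR8-E518K, brought in with the same second plasmid. All lines of the series shared the strain label of a commercial source (Novus Biochemicals), were grown without feeder cells in 2i medium with LIF, and each line is 1 clone. The labels do not say whether the clones keep a DGCR8 copy outside the vector. The spread between clones was taken from the 3 induced wild-type clones (10, 12 and 16) and the 3 induced E518K clones (8, 13 and 15). The 3 DGCR8 -/- libraries (KO), induced and not transfected, served as the background level without DGCR8. Doxycycline and the vector product cannot be told apart in the clones, since the KO libraries were all treated and no wild-type or E518K library lacks a vector.

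DGCR8 binds RNA and works with the nuclease Drosha. Together they form the microprocessor, which recognises the hairpins of primary miRNA transcripts and cuts them free, after which Dicer trims them to mature miRNAs. The E518K change lies in an RNA-binding domain of DGCR8 and recurs in Wilms tumours, a kidney cancer of childhood. Most miRNAs need the microprocessor, whereas mirtrons, which are released by splicing, and a few hairpins with capped ends or from other small RNAs do not. A vector under doxycycline control therefore asks how each miRNA responds when more DGCR8, wild-type or mutant, is supplied to the same cells.

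The miRNAs on which the comparison turns are shown 5′ to 3′, with the seed (bases 2 to 8), the part that pairs with targets, in capitals. They are RefSeq sequences on GRCm38.p6, in which 339 of the 393 miRNAs (86.3%) had an entry by name. The first 3 share a seed, and in wild type the ratio of miR-92a-3p differed from those of miR-25-3p and miR-363-3p. miR-25-3p comes from miR-106b-25, miR-363-3p from miR-106a-363, and miR-92a-3p from hairpins in both miR-17-92 and miR-106a-363.
miR-25-3p: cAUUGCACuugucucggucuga
miR-363-3p: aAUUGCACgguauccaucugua
miR-92a-3p: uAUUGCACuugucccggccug
The next pair are 5p arms of 2 hairpins of the main embryonic stem cell cluster, also with 1 seed.
miR-292a-5p: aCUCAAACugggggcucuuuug
miR-293-5p: aCUCAAACugugugacauuuug
A further 4 share the seed of the miR-17 group and were among the 10 highest E518K ratios with 10 or more counts in both libraries.
miR-20a-5p: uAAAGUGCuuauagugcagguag
miR-20b-5p: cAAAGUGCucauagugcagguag
miR-93-5p: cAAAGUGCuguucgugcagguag
miR-106b-5p: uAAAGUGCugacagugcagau
The last 5 are 3 abundant miRNAs, 1 higher in both clones and 2 with opposite directions, and the 2 arms of a mirtron.
miR-7a-5p: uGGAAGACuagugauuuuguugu
miR-183-5p: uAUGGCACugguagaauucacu
let-7f-5p: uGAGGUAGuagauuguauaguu
miR-877-5p: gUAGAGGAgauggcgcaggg
miR-877-3p: uGUCCUCUucucccuccuccca

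miR-25-3p lies at chr5:138165332-138165353 on the minus strand, with its hairpin in an exon of Mcm7, which also holds miR-93 and, in an intron, miR-106b. miR-92a-3p lies at chr14:115044476-115044496 on the plus strand, in an exon of the lincRNA Mir17hg, and has a second hairpin, Mir92-2, at chrX:52741838-52741928 beside that of miR-363. miR-363-3p is at chrX:52741697-52741718 and miR-20b-5p at chrX:52742159-52742181, both on the minus strand and in no GENCODE gene. miR-293-5p lies at chr7:3220356-3220377 on the plus strand, opposite an exon of Nlrp12. miR-877-3p lies at chr17:35960731-35960752 on the minus strand, in an intron of Abcf1.

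The total miRNA count was 1421247 in untreated and 3394216 in induced wild-type clone 10. In E518K clone 8 it was 264507 and 1797240. Counts were scaled to CPM (counts per 1e6 counts) by TMM factors over all 11 libraries. Of the counts from 1 to 40, 90.3% were even, so each small RNA was taken as 2 counts, and a floor of 6 counts (3 small RNAs) was used. That floor equals 8.75 CPM in untreated and 2.94 in induced wild type, and 19.045 and 3.93 CPM in E518K. The untreated E518K library thus resolves low miRNAs least. Intervals are 95% exact intervals on counts divided by 2, and cover counting error only.

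In wild-type clone 10 miRNAs stood on both sides of the untreated level after induction, and in E518K clone 8 most were higher. Of 390 miRNAs with a ratio in wild type, 134 (34.4%) were past 2-fold higher after doxycycline, 98 (25.1%) were past 2-fold lower and 158 lay within 2-fold. The median log2 ratio was 0.41. Of 333 with a ratio in E518K, 204 (61.3%) were higher, 64 (19.2%) lower and 65 within 2-fold, with a median of 1.75. All 134 higher ones in wild type (34.4%) had an untreated library below all 3 induced clones, and 94 of the lower ones (24.1%) had it above all 3. In E518K these were 199 (59.8%) and 64 (19.2%). Differences past 8-fold numbered 34 higher and 29 lower in wild type, and 88 higher and 42 lower in E518K. A miRNA at 0 in 1 library enters as a bound at the floor, which was so for 6 in wild type and 44 in E518K. Another 36 ratios in wild type and 87 in E518K rest on 1 to 6 counts in 1 library, so many E518K ratios are poorly resolved. In E518K a further 60 had no ratio, because their counts did not exceed the floor in either library or gave no bound against it.

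Where both libraries of the clone had 50 or more counts, the wild-type median was −0.11, with 50 of 214 higher (23.4%) and 60 lower (28%). In E518K it was 0.96, with 49 of 99 higher (49.5%) and 35 lower (35.4%). The median SD between the 3 induced clones was 0.300 log2 units in wild type and 0.390 in E518K. The median size of the response was 1.06 and 2.90 log2 units. The response was past 2 such SDs of the same miRNA for 146 of 214 in wild type and 91 of 99 in E518K. The untreated library lay outside the range of the 3 induced clones for 183 of 214 (85.5%) and for 95 of 99 (96%). This range is between clones, while the responses are within a clone.

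How many miRNAs were higher or lower depended on the scaling, which adds 1 constant to every log2 ratio of a clone. In wild type the constant was 0.32 with total counts, 0.48 with TMM over the 4 libraries, 0.77 with the authors' scaled values and 0.97 with DESeq2 size factors. The split of 134 higher and 98 lower became 162 and 86, 185 and 73, 206 and 62, and 215 and 53. Setting the DGCR8-independent miRNAs equal between libraries added 3.14 and gave 341 higher and 6 lower. In E518K the constants were −0.49, 0.04, 1.82 and 0.34, and the split of 204 and 64 became 178 and 70, 206 and 64, 272 and 43, and 224 and 61. With the DGCR8-independent miRNAs set equal, 3.28 was added and the split was 304 and 8. The counts do not show which constant holds in the cells, and changes in the amount of all miRNAs together were not measured here. Ratios between miRNAs within a clone do not depend on it.

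**Figure D1:**
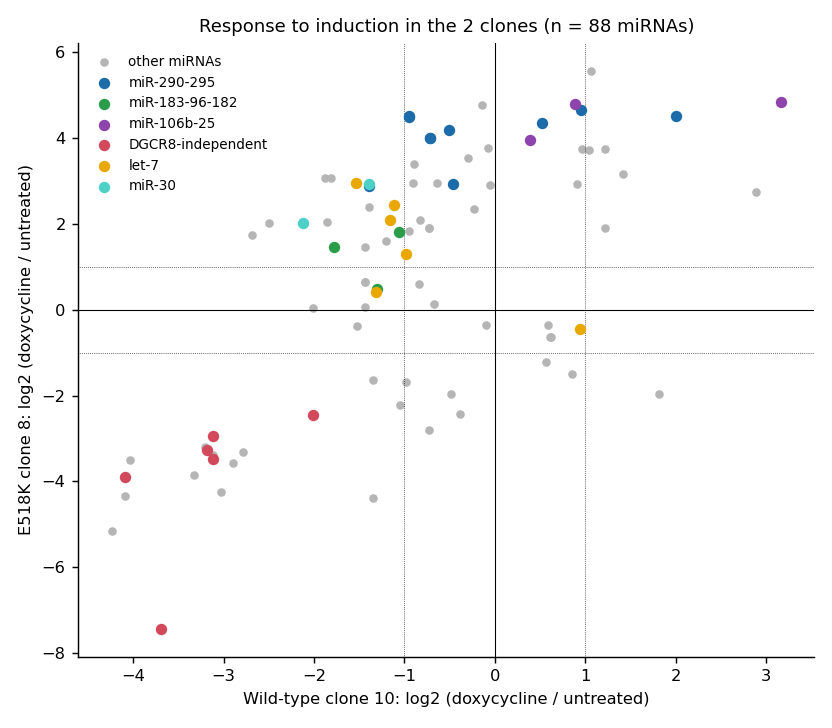
Log2 ratio of induced over untreated CPM for miRNAs with 50 or more counts in all 4 libraries (n = 88), wild-type clone 10 on the horizontal and E518K clone 8 on the vertical axis, with the lines of 2-fold marked. The DGCR8-independent miRNAs sit at the lower left, and 16 of the 88 lie past 2-fold lower in wild type and past 2-fold higher in E518K. Lower in both were 18, and 25 were within 2-fold in wild type and higher in E518K.

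The miR-290-295 cluster, which makes up most miRNA of mouse embryonic stem cells, held a far larger share after induction in E518K and a similar share in wild type. Its summed share was 2.51% of the miRNA counts in untreated E518K clone 8 (exact binomial interval 2.43 to 2.60) and 29.0% after induction. The other induced E518K clones had 26.5% and 32.6%, and the KO 0.220 to 0.661%. In wild-type clone 10 the share was 58.6% untreated and 57.3% induced, within the 49.5 to 59.5% of the 3 induced clones. Of its members 8 hold the same reads as another member, and with these merged the shares were 1.45 and 18.9% in E518K and 43.8 and 46.7% in wild type.

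Of the 18 members of miR-290-295, 16 were past 2-fold higher in E518K (median log2 4.10, against 1.75 over all miRNAs, of which 61.3% were higher) and none lower. The 10 members with 50 or more counts in both E518K libraries were all past 2-fold higher (median 4.27, against 0.96 and 49.5% over all such miRNAs). In wild type 1 was higher and 3 were lower, and the median of −0.36 became −0.04 with total counts, 0.12 with TMM over the 4 libraries, 0.41 with the authors' scaled values, 0.61 with DESeq2 size factors and 2.78 with the DGCR8-independent miRNAs set equal.

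miR-292a-5p was the most abundant miRNA of both clone 10 libraries, and miR-292b-3p held the same reads. It had 366348 counts untreated and 659602 induced in wild type, or 534292 and 323668 CPM, a log2 ratio of −0.72 (−0.73 to −0.71). E518K clone 8 had 2770 and 216002 counts, or 8792 and 141355 CPM, 16.1-fold higher (15.2 to 17.0). The other induced clones had 361284 and 159402 CPM in wild type and 89234 and 201224 in E518K. Wild type was thus high in all 4 libraries, with the untreated one above the range, while in E518K only the untreated library was low.

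miR-293-5p, with the same seed, was the member that was past 2-fold higher in wild type. Its level was 52003 CPM untreated and 207874 induced, 3.997-fold higher (3.94 to 4.06), with 254750 and 127648 CPM in clones 12 and 16. In E518K it was 511 CPM untreated and 11619 induced, 22.7-fold higher (18.3 to 28.7), with 7963 and 11975 CPM in clones 13 and 15. The untreated library lay below all 3 induced clones in both genotypes. The induced E518K clones stayed below even the untreated wild-type library.

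The other arm, miR-293-3p, was 1.93-fold higher in wild type (1.88 to 1.97) and 25.3-fold higher in E518K (17.6 to 37.9). miR-295-3p, of the members known to promote the stem cell cycle, had 10234 CPM untreated and 14718 induced in wild type, and 724 and 14790 in E518K. Of the 4 libraries only untreated E518K was low. miR-291a-3p, with the same seed, was lower in wild type (11737 to 4487 CPM, log2 −1.39) and higher in E518K (400 to 2971 CPM, 7.43-fold). Ends of the range within wild type were miR-290a-3p at −1.94 and miR-293-5p at 2.00, a spread of 15.4-fold over 1 arm for each of 6 hairpins. miR-290a-3p is the less abundant arm of its hairpin, on 106 untreated and 82 induced counts. The other arm, miR-290a-5p, held the same reads as miR-290b-3p, which stood at 0.02. The 15.4-fold thus depends on which arm is taken, and the miR-291a hairpin was not among the 6. Taking 1 arm for each of 5 hairpins, the E518K spread was 2.97-fold.

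**Figure D2:**
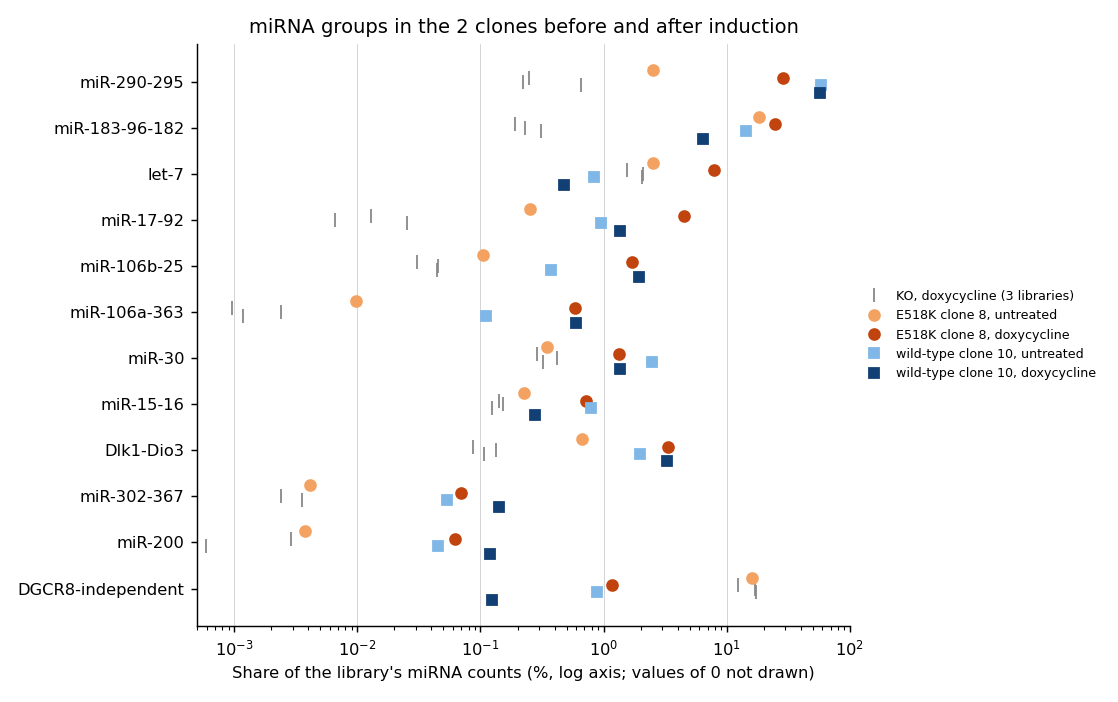
Share of the miRNA counts (percent, log axis) held by each miRNA group, with a point for the untreated and the induced library of each clone and a tick for each of the 3 KO libraries. The miR-290-295 share goes from 2.51% to 29.0% in E518K and stays at 58.6% and 57.3% in wild type, and the DGCR8-independent share goes down in both clones.

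The miR-17-92 cluster and its paralogs miR-106a-363 and miR-106b-25, which promote proliferation and share seeds, had a higher E518K level after induction for every measured member. In E518K most of them had under 50 counts untreated, so their counts and medians describe them and support nothing further. All 9 measured members of miR-17-92 were past 2-fold higher there (median log2 3.54; 8 of 9 with total counts), as were all 6 of miR-106a-363 (6.03) and all 6 of miR-106b-25 (4.24), where 61.3% of all miRNAs were higher. With 50 or more counts in both E518K libraries there were 3 members of miR-17-92 and 3 of miR-106b-25, all higher, and none of miR-106a-363, whose 6.03 rests on untreated counts of 11 or fewer. In wild type 5 of 9, 6 of 6 and 3 of 6 were past 2-fold higher, where 34.4% of all miRNAs were, with medians of 1.07, 2.14 and 1.05, and none was lower. The 3 of 6 in miR-106b-25 became 4 with total counts, 5 with TMM over the 4 libraries and 6 with the other scalings. miR-92a-3p is counted here with miR-17-92 only. The E518K shares went from 0.251 to 4.52% for miR-17-92, from 0.00983 to 0.591% for miR-106a-363 and from 0.105 to 1.69% for miR-106b-25. The wild-type shares were 0.959% untreated and 1.36% induced, 0.110 and 0.595%, and 0.377 and 1.96%.

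After induction miR-25-3p was the most abundant product of the Mcm7 transcript in both clones. Untreated, miR-106b-3p was above it, with 2964 CPM in wild type and 375 in E518K. miR-25-3p had 2743 CPM untreated and 24545 induced in wild type. Clones 12 and 16 had 24408 and 21519 CPM, so the untreated library stood 8.95-fold (8.38 to 9.56) below its own clone and below every induced one. In E518K it had 267 CPM untreated and 7663 induced, 28.7-fold higher (21.2 to 39.9), with 5145 and 6003 CPM in clones 13 and 15. Its induced E518K level was above the untreated wild-type level and below the induced one.

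miR-92a-3p, which has the same seed, behaved differently in wild type. It had 13689 CPM untreated and 12437 induced (log2 −0.14, −0.19 to −0.09), with 15155 and 16000 CPM in clones 12 and 16, so the untreated library lay within the induced range. E518K clone 8 had 1101 CPM untreated and 29998 induced, 27.2-fold higher (23.5 to 31.8). The induced E518K level was above all wild-type libraries, with 21354 and 24717 CPM in the other E518K clones.

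miR-363-3p had 435 CPM untreated and 3674 induced in wild type, 8.45-fold higher (7.18 to 10.0). In E518K it had 3 counts untreated and 2981 induced, a ratio of 205 with an interval of 47.8 to 2850. The AUUGCAC seed group, with miR-32-5p and miR-92b-3p, spread over 9.85-fold in its wild-type responses.

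The largest E518K ratios among miRNAs with 10 or more untreated counts were those of miR-20b-5p and miR-20a-5p. miR-20b-5p went from 34.9 to 2868 CPM, 82.1-fold higher (36.5 to 237), on 11 untreated counts. miR-20a-5p went from 254 to 12077 CPM, 47.6-fold higher (34.9 to 66.6). In wild type they were 2.21-fold and 2.09-fold higher. miR-93-5p, in the same seed group, was 27.6-fold higher in E518K (19.2 to 41.3) and 1.85-fold in wild type (1.69 to 2.02). miR-106b-3p, from the hairpin beside it, was 15.6-fold and 1.31-fold higher, and with 1 arm for each of the 3 hairpins in Mcm7 the spread was 6.82-fold in wild type and 1.85-fold in E518K. miR-19b-3p was 27.0-fold higher in E518K and 2.54-fold in wild type.

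miR-18b-5p of miR-106a-363 was among the largest wild-type ratios, with 48 counts untreated and 2309 induced, 16.2-fold higher (10.8 to 25.4). E518K clone 8 had 0 and 272 counts, at least 9.35-fold higher. miR-18a-5p, its paralog in miR-17-92, had 40 and 495 counts in wild type, 4.16-fold higher (2.64 to 6.94). In E518K it had 0 and 319, at least 10.96-fold higher.

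**Figure D3:**
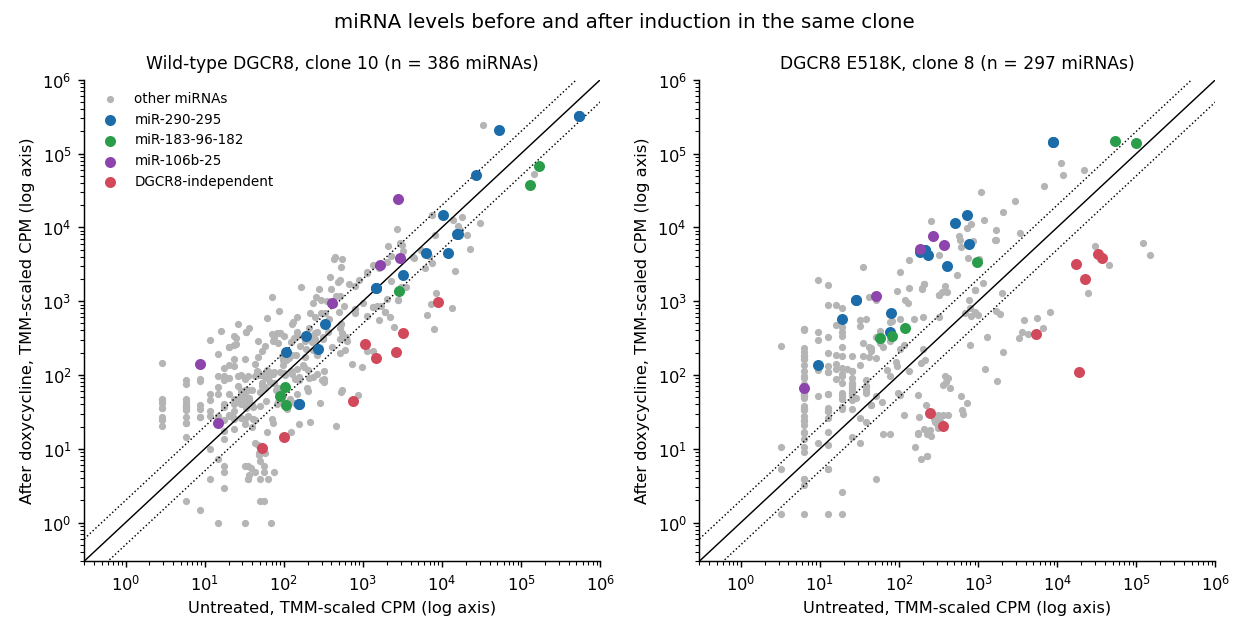
CPM after doxycycline (vertical) against CPM untreated (horizontal), both on log axes, with 1 point for each miRNA counted in both libraries of wild-type clone 10 (left) or E518K clone 8 (right), the line of equality and dotted lines at 2-fold. The miR-290-295 and miR-106b-25 points lie above the upper dotted line for nearly all members in E518K, and the DGCR8-independent points lie below the lower dotted line in both clones.

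The miR-183-96-182 cluster held the largest share of the groups listed here in untreated E518K, with 18.3% of its counts, against 0.189 to 0.309% in the KO. It held 24.6% after induction. In wild type its share was 14.4% untreated and 6.42% induced, with 6.42 to 7.005% over the 3 induced clones. Of 6 members, 5 were past 2-fold higher in E518K, with a median log2 ratio of 1.83 that lies near the 1.75 of all miRNAs (61.3% higher). Only 3 members had 50 or more counts in both E518K libraries, and 2 of these were higher. In wild type 4 were past 2-fold lower, where 25.1% of all miRNAs were, and the median of −1.18 turned to 1.96 only with the DGCR8-independent miRNAs set equal. The 4 lower ones became 2 with total counts, 1 with TMM over the 4 libraries or the authors' scaled values, and none with DESeq2 size factors.

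miR-183-5p, known from sensory cells and many tumours, had 129408 CPM untreated and 37782 induced in wild type (log2 −1.78, −1.80 to −1.76). Clones 12 and 16 had 46751 and 29398 CPM, all below the untreated library. E518K clone 8 had 53840 CPM untreated and 147270 induced, 2.74-fold higher (2.68 to 2.80), with 107927 and 191121 CPM in clones 13 and 15. miR-182-5p had 166434 and 67531 CPM in wild type (log2 −1.30) and 98383 and 137067 in E518K (1.39-fold higher). The untreated wild-type level of each lay within the range of the 3 induced E518K clones, and the KO had 343 to 619 CPM of miR-183-5p. With 1 arm for each of its 3 hairpins the cluster spread by 1.64-fold in wild type and 2.51-fold in E518K. Over all 6 arms the lowest and highest log2 ratios were −1.78 and −0.56 in wild type, and 0.48 and 2.48 in E518K.

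With TMM scaling a group of abundant miRNAs went in opposite directions in the 2 clones. Among the 88 miRNAs with 50 or more counts in all 4 libraries, 16 were past 2-fold lower in wild type and past 2-fold higher in E518K. Of the others lower in wild type, 18 were lower in E518K and 7 within 2-fold. Of the others higher in E518K, 25 were within 2-fold in wild type and 8 higher. Opposite directions were thus not the most frequent class, and whether they exceed the shares in each clone was not tested. miR-148a-3p had 143766 CPM untreated and 52968 induced in wild type (log2 −1.44), and 22038 and 60237 in E518K (2.73-fold higher). miR-101a-3p had 30373 and 11532 CPM in wild type (−1.40) and 6790 and 35815 in E518K (5.28-fold higher). The induced wild-type clones all lay below the untreated one for both miRNAs. The wild-type ratios of both miRNAs fall within 2-fold with the authors' scaled values or DESeq2 size factors, which add 0.77 and 0.97. Both lower values turn to higher ones (1.70 and 1.74) with the DGCR8-independent miRNAs set equal. The 16 of 88 hold for TMM scaling only.

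In the miR-30 family 6 of 11 members were past 2-fold lower and 1 higher in wild type (median −1.36), where 25.1% of all miRNAs were lower. With DESeq2 size factors and with the authors' scaled values the split was 2 higher and 2 lower (medians −0.40 and −0.59), and with the DGCR8-independent miRNAs set equal the median was 1.78. In E518K 10 of 11 were higher (2.03, against 1.75 and 61.3% over all miRNAs), and 7 of 11 with total counts. Only 2 members had 50 or more counts in both E518K libraries, and these 2 were higher. miR-30a-5p had 22515 CPM untreated and 5164 induced in wild type, and 1641 and 6701 in E518K. miR-30d-5p had 20819 and 7961 in wild type, and 851 and 6467 in E518K. miR-16-1-3p, the 3p arm of a hairpin in Dleu2, had 14574 and 2584 CPM in wild type (log2 −2.50), and 1663 and 6768 in E518K (4.07-fold higher). In each of these the untreated wild-type library was the highest of the 4.

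The let-7 family, which rises as stem cells differentiate, held 2.52% of the counts of untreated E518K and 7.91% after induction, with 5.75 to 7.91% over the 3 induced clones. Its share was 0.832% in untreated and 0.475% in induced wild type, but the induced wild-type clones ran from 0.475 to 1.46%, on both sides of the untreated value. The KO, without DGCR8, held 1.55 to 2.08%, above both clone 10 libraries. Of 12 members with a ratio 9 were past 2-fold higher in E518K and none lower, with a median of 1.83, near the 1.75 of all miRNAs (61.3% higher). Of the 6 with 50 or more counts in both E518K libraries 4 were higher, against 49.5% of all such miRNAs. In wild type 6 of 11 were past 2-fold lower and none higher, with a median of −1.11, where 25.1% of all miRNAs were lower. That split depended on the scaling. It was 3 lower and 1 higher with total counts or TMM over the 4 libraries, 2 lower and 3 higher with the authors' scaled values, and 1 lower and 3 higher with DESeq2 size factors (median −0.14). With the DGCR8-independent miRNAs set equal the median was 2.03. let-7f-5p had 7429 CPM untreated and 3317 induced in wild type, with 11357 and 3366 CPM in clones 12 and 16. The KO had 3377 to 4971 CPM of it, so induced clones 10 and 16 were not above the background level. let-7a-5p had 550 CPM in induced clone 10 and 337 to 689 in the KO. In E518K let-7f-5p had 11970 and 50716, 4.24-fold higher (4.05 to 4.44). Against clone 12 instead of clone 10 the wild-type log2 ratio was 0.61 for let-7f-5p and 0.71 for let-7a-5p, so the direction differed between induced clones. Members of the GAGGUAG seed spread over 21.0-fold in E518K, from let-7b-5p (−0.48) to let-7d-5p (3.91).

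miR-7a-5p, abundant in neuroendocrine tissues, was higher after induction in both clones. It had 33210 CPM untreated and 245186 induced in wild type, 7.38-fold higher (7.25 to 7.52). Clones 12 and 16 had 262592 and 142119 CPM. E518K clone 8 had 11167 and 75156 CPM, 6.73-fold higher (6.42 to 7.06), with 43025 and 83559 in clones 13 and 15. The untreated library was the lowest in both genotypes. The difference between the 2 log2 ratios was not tested.

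The imprinted Dlk1-Dio3 locus on chromosome 12 is a long run of hairpins expressed from the maternal chromosome. In wild type 44 of its 72 measured members were past 2-fold higher and 10 lower, against 34.4% and 25.1% of all miRNAs. The median was 1.58, against 0.41 over all miRNAs. With 50 or more counts in both libraries 17 of 35 were higher and 9 lower, against 23.4% and 28% of all such miRNAs. Their median was 0.57, against −0.11. In E518K 45 of 55 were higher and none lower (median 2.53 against 1.75), where 61.3% of all miRNAs were higher. Of these 55, 14 enter as bounds at the floor. Only 9 members had 50 or more counts in both E518K libraries, and 8 of those were higher. Of the counts the locus held 1.96% untreated and 3.28% induced in wild type, where the induced clones had 2.21 to 4.45%. In E518K it held 0.674% untreated and 3.37% induced. miR-409-3p, its most abundant member in induced E518K, had 1329 and 3094 CPM in wild type and 724 and 9661 in E518K. miR-541-5p had 2088 and 5565 in wild type and 600 and 5332 in E518K.

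The locus also gave several of the largest wild-type ratios, all on 11 to 18 untreated counts. miR-494-3p had 11 counts untreated and 802 induced, 24.5-fold higher (10.8 to 71.1). miR-758-3p had 18 and 987, 18.4-fold higher (9.64 to 40.6). miR-379-3p had 16 and 678 and miR-493-5p 17 and 654, 14.3-fold and 12.9-fold higher. Against these, miR-127-3p had 8280 CPM untreated and 1291 induced (log2 −2.68), and its hairpin lies in the same run as miR-493. The spread within that run of 11 hairpins was 83.0-fold in wild type. In E518K miR-127-3p went from 403 to 1349 CPM. miR-433-3p and miR-369-3p of the same locus had the most induced counts among miRNAs at 0 in untreated E518K, 705 and 612, at least 24.2-fold and 21.0-fold higher. In wild type they were at log2 −0.56 and 1.74.

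**Figure D4:**
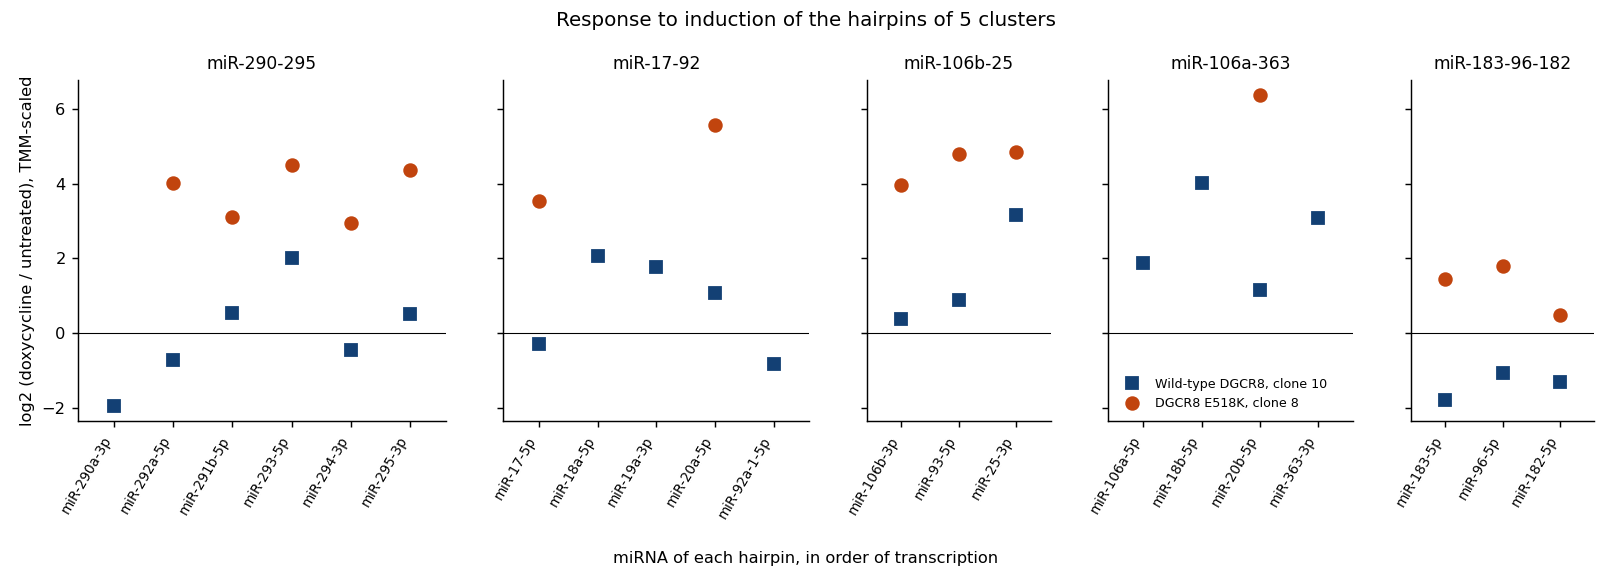
Log2 ratio of induced over untreated (vertical axis) for 1 arm of each hairpin, in order of transcription, with a panel for each of 5 clusters, squares for wild-type clone 10 and circles for E518K clone 8. Within wild type the arms drawn for miR-290-295 spread over 15.4-fold and those of miR-183-96-182 over 1.64-fold. The low end of miR-290-295 is miR-290a-3p, the less abundant arm of its hairpin.

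The spread among hairpins of a cluster, which are usually cut from a shared transcript, does not depend on scaling. Of 10 clusters with 3 or more measured hairpins in wild type, 9 spread past 2-fold. Some ends of these ranges rest on few untreated counts, such as 8 for miR-1197-3p, 12 for miR-302c-3p and 17 for miR-493-5p. In E518K 3 of 4 did. The median spread was 2.88 log2 units in wild type and 1.45 in E518K. The number of clusters and of hairpins per cluster differed between the clones, so these medians are not compared.

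The DGCR8-independent miRNAs were lower after induction in both clones, relative to the rest. Of 13 listed, 8 passed the filter of 50 counts, and all 8 were past 2-fold lower in both clones. Over all miRNAs 25.1% were past 2-fold lower in wild type and 19.2% in E518K. A member could pass this filter through an untreated library alone, where this list is high. In each clone 6 had 50 or more counts in both libraries, all past 2-fold lower (medians −3.15 in wild type and −3.37 in E518K). Of all such miRNAs 28% were lower in wild type and 35.4% in E518K. The median of the 8 was −3.11 in wild type and −3.37 in E518K, where that of all miRNAs was 0.41 and 1.75. With this same list set equal between libraries the medians are by construction near 0 (0.03 and −0.09). Their share of the counts went from 16.0 to 1.18% in E518K, where the KO had 12.3 to 17.2%, and from 0.880 to 0.124% in wild type. The number of other miRNA counts per count of this list is free of scaling. It went from 5.26 to 84.0 in E518K, 16.0-fold higher, and from 113 to 805 in wild type, 7.15-fold higher. The KO libraries had 4.81 to 7.14. The untreated E518K library lay within the KO range, and the untreated wild-type library above the induced E518K clones, which had 60.3 to 110.

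miR-320-3p, processed from a capped hairpin at a transcription start site, had 1454 CPM untreated and 168 induced in wild type and 22448 and 2021 in E518K. The KO had 10580 to 15002 CPM. miR-484, also from a start site, was 4.02-fold lower in wild type and 5.51-fold lower in E518K. miR-1839-5p was 9.07-fold and 9.56-fold lower, and miR-1983, from a tRNA gene, 8.64-fold and 7.64-fold lower. Each of these 4 was lowest in the induced wild-type library and highest in the untreated E518K library. miR-877-5p, the mirtron arm, was 17.0-fold lower in wild type and 14.9-fold lower in E518K. miR-877-3p was 12.9-fold lower in wild type but 173-fold lower in E518K, from 18899 to 109 CPM. The other induced E518K clones had 1159 and 2153 CPM, so the lowest value is that of clone 8 alone. The 5p arm held 22.1% of the miR-877 counts in untreated and 76.7% in induced E518K clone 8, and 22.5 and 18.1% in wild type. miR-1291 was 6.97-fold lower in wild type and 17.5-fold lower in E518K, and miR-1839-3p had log2 ratios of −2.35 and −3.04.

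Several miRNAs outside this list followed it, and were also high in the KO. miR-1981-5p, in an intron of Marc2, had 7937 CPM untreated and 422 induced in wild type and 149824 and 4204 in E518K, with 86063 to 129083 in the KO. miR-5099 had 13495 and 795 CPM in wild type and 122802 and 6108 in E518K, with 132502 to 147066 in the KO. miR-6539 was 10.0-fold and 14.4-fold lower, and miR-3068-3p 16.4-fold and 11.3-fold lower. miR-100-5p was 2.54-fold lower in wild type and 20.9-fold lower in E518K, from 1720 to 82.5 CPM, where the KO had 1430 to 2142. miR-10a-5p was 2.80-fold and 21.9-fold lower. In all 6 the untreated E518K library was above its induced partner, and for miR-1981-5p, miR-6539 and miR-3068-3p it was also above the 3 KO libraries. Among miRNAs with 10 or more counts in both libraries miR-7688-5p had the lowest wild-type ratio, from 456 to 20.1 CPM (22.7-fold lower), and went from 1203 to 118 in E518K. miR-5615-3p and miR-5615-5p, which held the same counts, were 29.1-fold lower in E518K, on 72 untreated and 12 induced counts, and miR-677-3p was 26.5-fold lower on 60 and 11.

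miR-1306 comes from a hairpin in the Dgcr8 transcript itself, which the microprocessor is known to cut. miR-1306-3p had 0 counts untreated and 32 induced in wild type, at least 1.79-fold higher, and 0 and 42 in E518K, at least 1.44-fold higher. miR-1306-5p had 0 and 25 counts in wild type, at least 1.40-fold higher, and 0 in both E518K libraries. These are under the 50 counts of the rule and are given for completeness. The labels do not say whether the vector carries this hairpin, so they do not measure its expression.

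Among miRNAs at 0 in untreated wild type, miR-1964-3p had the most induced counts, 119, at least 6.67-fold higher. miR-350-3p followed with 66, miR-425-3p with 58 and miR-130b-3p with 50, the last at least 2.80-fold higher. All 4 had 8 counts or fewer in induced E518K. In the other direction miR-7073-5p had 32 counts in untreated and 0 in induced wild type, at least 15.9-fold lower, and 54 and 24 in E518K, 10.9-fold lower.

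Across miRNAs the 2 responses were related. Pearson's r between them was 0.61 (Spearman's rho 0.57) over the 88 miRNAs with 50 or more counts in all 4 libraries, and 0.53 over the 82 outside the DGCR8-independent list. miRNAs are not independent replicates, and each axis rests on 1 pair of libraries. Of 330 miRNAs with a ratio in both clones, 68 were higher in both, 49 lower in both, 99 within 2-fold in wild type and higher in E518K, and 37 lower in wild type and higher in E518K. The reverse, higher in wild type and lower in E518K, held for 3 (miR-145a-5p, miR-365-3p and miR-532-5p). Over all miRNAs with a ratio in the clone, 34.4% were higher and 25.1% lower in wild type. In E518K 61.3% were higher and 19.2% lower. miR-532-5p had 292 CPM untreated and 1025 induced in wild type, and 378 and 97.5 in E518K, with 309 to 432 in the KO. miR-99b-5p had 2280 and 4101 in wild type and 1863 and 665 in E518K, and the E518K ratio turns to 0.33 with the authors' scaled values.

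miRNAs that were higher after induction in wild type tended to be lower in E518K than in wild type in other clones. The difference between induced E518K clones 13 and 15 and induced wild-type clones 12 and 16 shares no library with the 2 responses. Its correlation with the wild-type response was r = −0.70 (rho −0.68) over 208 miRNAs, and −0.67 over the 202 outside the DGCR8-independent list. Over the 50 miRNAs past 2-fold higher in wild type the median log2 ratio of E518K over wild type was −2.58, and 44 of them were lower in E518K. Over the 60 past 2-fold lower it was 1.28, with 13 lower in E518K. Over the 104 in between it was −0.63, and over all 214 it was −0.45, with 125 lower. For the E518K response r was −0.51 over 99 miRNAs, and −0.45 over the 93 outside the list. Both axes share the counting depth and abundance of the same miRNAs.

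**Figure D5:**
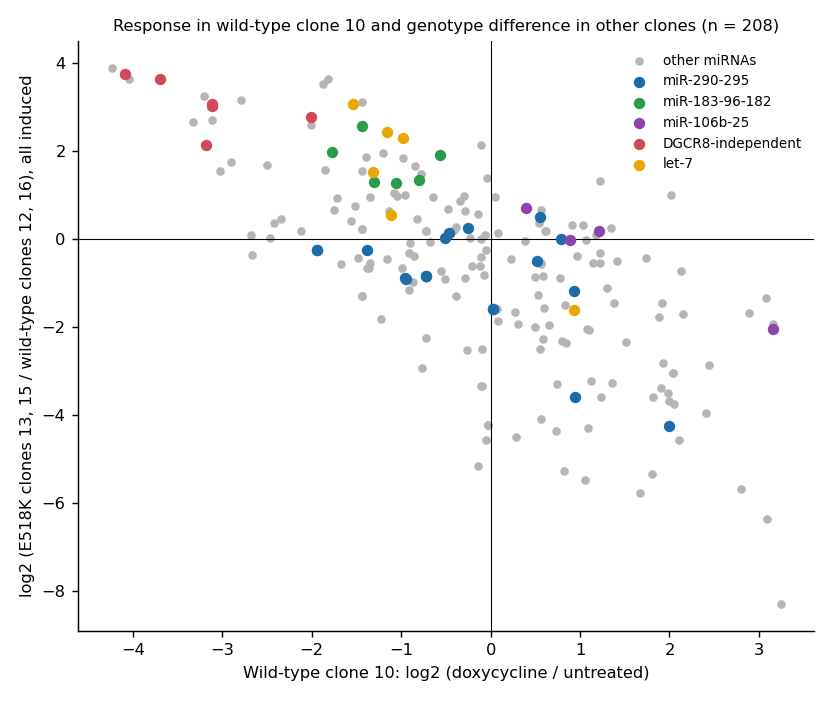
Log2 ratio of induced over untreated in wild-type clone 10 (horizontal axis) against log2 ratio of induced E518K clones 13 and 15 over induced wild-type clones 12 and 16 (vertical axis), 1 point per miRNA with 50 or more counts in both libraries of clone 10 and more than 6 in each of those 4 clones (n = 208). Points run from upper left to lower right (r = −0.70), with the DGCR8-independent miRNAs at the upper left.

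Levels in untreated wild type were also set against those of induced E518K. Over the 88 miRNAs the correlation of log2 CPM between untreated wild type and induced E518K clone 8 was 0.83, against 0.87 between the 2 wild-type libraries and 0.33 between the 2 E518K libraries. Of 202 miRNAs with 50 or more counts in both, 89 lay within 2-fold between untreated wild type and induced E518K, 45 were higher in E518K and 68 lower (median log2 −0.26). These 2 libraries differ in clone, genotype and drug at once, and these cannot be told apart.

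Minor arms are the passenger strands that are usually degraded. The minor arm's response minus that of the major arm had a median of −0.12 over 81 hairpins in wild type (36 more, 44 less) and 0.18 over 31 in E518K (17 more, 13 less). Past 2-fold were 9 more and 11 less in wild type and 7 and 6 in E518K. miR-221-5p, a minor arm, held 36.8% of its hairpin's counts untreated and 15.5% induced in wild type, and went in E518K from 40% to 15.7%. miR-151-5p went from 0.918 to 6.52% in wild type, on 10 untreated counts. For miR-293 the 3p arm, the minor one, stood at 34.1% untreated and 19.99% induced in wild type, and at 26.5 and 28.7% in E518K.

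UGU in the apical loop is described as a DGCR8 contact. It was searched on the RNA strand, in the loop between the mature arms with the last 3 bases of the 5p arm, and 258 of 644 RefSeq hairpins (40.1%) held it. The median wild-type response was 0.06 over 78 hairpins with UGU and 0.52 over 90 without. In E518K it was 1.93 over 45 with and 1.74 over 57 without. The order of the medians differed between the clones. A match of 3 letters is a description and not a site.

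Both clones were labelled embryonic stem cells, and the miR-290-295 share, given above, was low in untreated E518K and the KO. The miR-302-367 cluster, the second stem cell cluster, held 0.141% in induced and 0.0530% in untreated wild type, and 0.0695% and 0.00416% in E518K. Markers of other cell types were low throughout. The neural list held 0.0982% of the counts in untreated and 0.234% in induced wild type, and 0.0514 and 0.162% in E518K, with 4 of its 11 listed miRNAs at 0 in all 4 libraries. Of its 5 measured members 2 were past 2-fold higher in wild type, near the 34.4% of all miRNAs. In E518K 4 of 4 with a ratio were higher, against 61.3% of all miRNAs, and none was lower in either clone. Only 1 member had 50 or more counts in both E518K libraries. The 3 with 50 or more in both wild-type libraries had a median of −0.32, with 1 higher. miR-128-3p, the highest wild-type ratio of the list, was 5.44-fold higher there. In E518K it was 6.83-fold higher, on 24 untreated counts. The blood, muscle and liver list held from 0.0132 to 0.0444% over the 4 libraries, with 8 of 20 listed at 0. In bulk samples, fewer cells of a type and less RNA per cell cannot be told apart, and the part of other cell types in the responses was not tested. The miR-200 list had 3 of 5 members past 2-fold higher in wild type and 4 of 5 in E518K, against 34.4% and 61.3% of all miRNAs. The whole miR-200 list had 10 counts in untreated E518K, and no member had 50 or more in both E518K libraries. The Sfmbt2 list had 9 of 17 higher in wild type, against 34.4% of all miRNAs. With 50 or more counts in both wild-type libraries 1 of 5 was higher, against 23.4%. In E518K 7 of 15 were higher and 1 lower, where 61.3% of all miRNAs were higher. Of these 15, 5 enter as bounds, and only 1 member had 50 or more counts in both E518K libraries. The number higher in E518K was 10 of 15 with DESeq2 size factors and 14 of 15 with the authors' scaled values.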

How the data were processed

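Small RNA was sequenced in 11 libraries of mouse embryonic stem cells, of which 4 were compared here. For 1966 miRNAs the deposited values are unnormalized counts, per the file headers. A second deposited table gives them as RPM (pRPM in the file headers); dividing each column by its step gave whole reads, within 0.01 reads, for 100% of values, and these equalled the counts. What pRPM was scaled to is not stated. Its column sums were 685878 untreated and 938495 induced in wild type, and 138451 and 683476 in E518K. The table named for piRNA was identical to the pRPM table and was left out. STAR, bedtools and the build GRCm38.p6 appear, without tool versions, in the submitters' processing notes. The counting rule and its use of strand are not given in the sources at hand, so miRNAs on opposite strands of a locus cannot be told apart. Per the labels' protocols, peqGold TriFast was used for extraction and NEBNext Multiplex Small RNA for the libraries.

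Counts were scaled with edgeR 4.0.16 (TMM) in R 4.3.3, with DESeq2 1.42.0 size factors as an alternative. Ratios, floors and intervals were tested on simulated data. Counts of 2 miRNAs within 2% of each other were taken as the same reads (19 sets, 38 miRNAs). No test was made, as each arm had 1 library. Named in each clone were the 8 most abundant induced miRNAs, the 8 highest and 8 lowest ratios with at least 10 counts in the lower library, the 4 with most counts at 0 in the other library, the 8 largest differences between clones, the DGCR8-independent list, miR-1306 and the 2 most abundant members of each list. The text gives most of these. Ends of cluster and seed ranges and the other members named were chosen after their values were seen. The members, lists and comparisons were chosen with earlier results of these data known. Hairpin positions came from GENCODE and RefSeq.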

Additional observations from a re-analysis of the deposited data

Results flagged for a closer look

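With TMM scaling some named miRNAs were past 2-fold in opposite directions in the 2 clones. Each clone gave 1 pair of libraries, so no difference was tested. The values are the E518K log2 ratio minus the wild-type one. Higher in E518K and lower in wild type were let-7a-5p (4.48), let-7f-5p (3.25), miR-101a-3p (3.80), miR-127-3p (4.42), miR-148a-3p (2.89), miR-16-1-3p (4.52), miR-183-5p (3.23), miR-291a-3p (4.28), miR-30a-5p (4.15) and miR-30d-5p (4.31). Lower in E518K and higher in wild type were miR-532-5p (−3.77), miR-145a-5p (−5.17) and miR-365-3p (−6.15). miR-145a-5p rests on 6 induced E518K counts and miR-365-3p on 4 untreated wild-type counts. Intervals of these ratios cover counting error only. DESeq2 size factors add 0.97 to each wild-type ratio. With them the wild-type ratios of let-7a-5p, let-7f-5p, miR-101a-3p, miR-148a-3p, miR-183-5p, miR-291a-3p and miR-30d-5p fall within 2-fold.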

How the results depend on the processing

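Scaling, which adds a constant to every ratio of a clone, moved the median log2 ratios and the counts most. In wild type the median of 0.41 was 0.73 with total counts, 0.89 with TMM over the 4 libraries, 1.18 with the authors' scaled values (206 higher, 62 lower), 1.38 with DESeq2 size factors (215 and 53) and 3.55 with the DGCR8-independent miRNAs set equal (341 and 6). In E518K the median of 1.75 was 1.36 with total counts, 2.09 with DESeq2 size factors, 3.355 with the authors' scaled values and 4.81 with the DGCR8-independent miRNAs set equal (8 lower). With 50 or more counts in both libraries the wild-type median was −0.11 (50 higher, 60 lower) and the E518K median 0.96 (49 and 35). Without a filter 149 were lower in wild type and 170 in E518K, where the median was 0.56. With 20 or more counts in 1 library 111 were lower in E518K, with a median of 1.14. The E518K median was 2.39 with a pseudocount of 1 CPM and 1.24 against induced clone 13. Over all miRNAs with a ratio, an alternative chosen after seeing the data, the correlation of the 2 responses was 0.50, and that of the E518K response with the genotype difference was −0.34.

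Among named ratios past 2-fold, directions turned for few miRNAs outside the scaling to the DGCR8-independent miRNAs. Against induced clone 12 the wild-type log2 ratio was 0.71 for let-7a-5p and 0.61 for let-7f-5p, and with the authors' scaled values the E518K ratio was 0.33 for miR-99b-5p. With the DGCR8-independent miRNAs set equal, the wild-type ratios of these named miRNAs past 2-fold lower turned positive: let-7a-5p 1.60, let-7f-5p 1.98, miR-100-5p 1.80, miR-101a-3p 1.74, miR-10a-5p 1.66, miR-127-3p 0.46, miR-1291 0.34, miR-1839-3p 0.79, miR-148a-3p 1.70, miR-16-1-3p 0.65, miR-182-5p 1.84, miR-183-5p 1.37, miR-1983 0.030, miR-221-5p 0.27, miR-290a-3p 1.20, miR-291a-3p 1.75, miR-30a-5p 1.02, miR-30d-5p 1.75, miR-320-3p 0.027, miR-484 1.14 and miR-677-3p 1.09. In E518K, among those past 2-fold lower, these turned positive: miR-1839-3p 0.24, miR-1839-5p 0.022, miR-1983 0.34, miR-365-3p 1.00, miR-484 0.82, miR-532-5p 1.32 and miR-99b-5p 1.79. These shifts follow from the constant.

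No paired analysis was possible because each comparison had 1 library per arm, which also left no replicate to leave out. Depth limits E518K most, since its untreated library had 264507 counts.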
